A study of Arabidopsis thaliana with 4 samples.

Results

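Described here are the transcripts of the mitochondrial genome of Arabidopsis thaliana, measured on 4 expression arrays of leaf primordia. Members were the probe sets whose platform annotation gives a gene of that genome by symbol (nad, cox, cob, ccb, atp, rps, rpl, matR or orf) or by an ATMG locus code, with plastid genes left out and with no filter on signal. Of 22746 probe sets on the array that are not controls, 23 listed 1 mitochondrial gene, and these covered 16 genes. A further 12 listed a mitochondrial gene together with other genes, and they are given by identifier and by the role of the mitochondrial gene, since the annotation does not say which transcript they read. For 11 of these 12 the other gene was a locus of nuclear chromosome 2, and for 244944_s_at it was a second mitochondrial ribosomal protein gene. In the Columbia line, chromosome 2 carries a large copy of the mitochondrial genome next to its centromere, so such probe sets match both places. The 23 are singly listed by the annotation only. Whether they, too, match that copy was not checked, since no probe sequences were at hand. Of reading frames without a functional name, only orfX was annotated, and it is listed as mttB in RefSeq's TAIR10.1 gene table. The annotation lists no gene for 8730 probe sets. Any further mitochondrial reading frames among them are not counted here.

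The groups were 2 arrays of an3-4 mutants and 2 arrays of wild type (WT), and the labels give the ecotype Col-0 for both. ANGUSTIFOLIA3 is a coactivator of transcription that keeps cells of young leaves dividing, and the labels do not describe the an3-4 allele. The first set of leaf primordia was taken 7 days after sowing from plants grown at 22 °C in continuous light, frozen in liquid nitrogen, and labelled from 10 µg of total RNA. The comparison of the 2 genotypes is the only one in the design, and the labels do not say whether the 2 arrays of a genotype came from separate plants, so p-values measure a spread between arrays that may be technical.

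Plant mitochondria encode a small part of the respiratory chain. The nad genes encode subunits of complex I, which passes electrons from NADH to ubiquinone. The gene cob encodes cytochrome b of complex III, the cox genes encode the core of complex IV, which passes electrons from cytochrome c to oxygen, and the atp genes encode parts of ATP synthase, complex V. The ccb genes, now mostly called ccm, act in the attachment of heme to cytochromes of the c type. Most other subunits come from nuclear genes. Several nad messages are assembled by trans-splicing from pieces transcribed separately. In plant mitochondria a poly(A) tail marks RNA for decay, and the standard labelling protocol for these arrays primes from poly(A), so a signal depends on tailed or otherwise primed RNA as well as on abundance.

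Signals are MAS5 values on a linear scale. The arrays numbered 1 had a trimmed mean of 143 and those numbered 2 one of 169 as deposited, so all signals below were brought to 1 common trimmed mean of 156. Each difference is a log2 fold change of an3-4 over WT with its SE, and called means a limma p under 0.05 after Benjamini-Hochberg adjustment over all 22746 probe sets. Signals under 37.4, the 40th percentile of all values on the scaled arrays, are referred to as dim, since no detection calls were used. The labels could not be checked against AN3, which the annotation does not name. Of 21 markers of leaf and other tissues, 3 were named. The stomatal lineage gene SPCH had signals of 146 and 113 in an3-4 and of 139 and 182 in WT, FAMA lay between 34.0 and 45.4 on all arrays, and the meristem gene CLV3 was dim on all 4. The tissue label was therefore hardly tested by its markers.

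Every called mitochondrial probe set was higher in an3-4 than in WT. Of the 23 probe sets with 1 mitochondrial gene, 6 rose, for cox1, cox2, nad1, nad9, ccb382 and ccb452, and none fell. Their median log2 fold change was 0.62, against 0.02 over all probe sets. The share called over all probe sets was 5.16%, with 2.66% called higher and 2.51% called lower in an3-4. Of the 12 probe sets with several genes, 3 rose and none fell, with a median of 0.41. At an unadjusted p under 0.05, limma gave 13 of the 23, all but nad2 of them higher, and 6 of the 12, all higher, where 17.2% of all probe sets passed, 9.49% higher and 7.72% lower. Without the intensity trend in limma, which ties the spread of a probe set to its signal, no probe set on the array was called, these 9 included. Both an3-4 arrays lay above both WT arrays for 13 of the 23 and 6 of the 12, where 25.0% of all probe sets did so, and below both for 2 of the 23 and 1 of the 12, where 20.8% did.

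**Figure D1:**
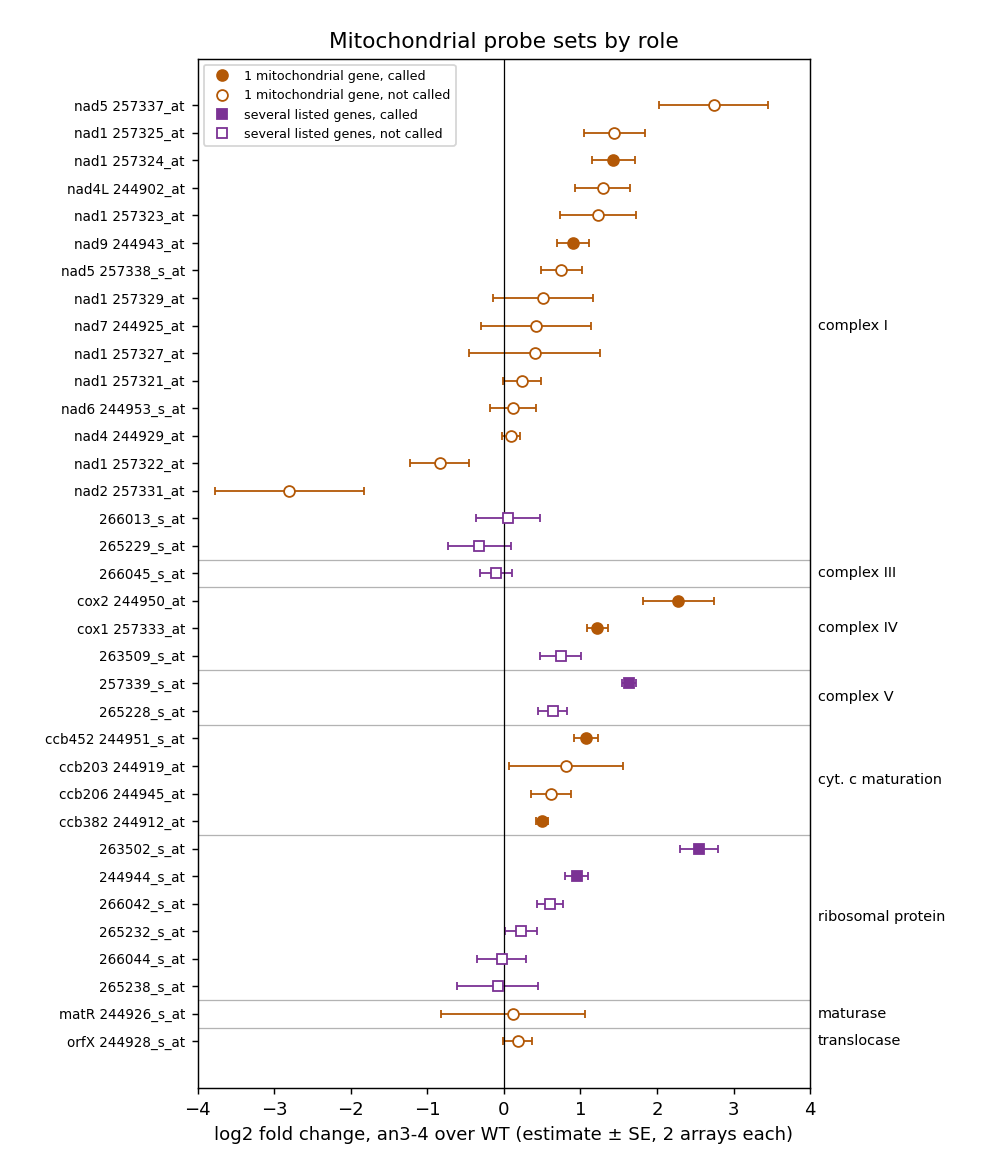
Log2 fold changes of an3-4 over WT (horizontal axis, estimate ± SE from limma, 2 arrays each) for the 35 mitochondrial probe sets, grouped by role. Filled symbols were called at an adjusted p under 0.05, circles list 1 mitochondrial gene and squares several genes; all 9 filled symbols lie to the right of 0, and complex I runs from -2.80 to 2.74.

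Many of these probe sets were dim. All 4 signals lay under 37.4 for 11 of the 23 and 4 of the 12, and no signal did for 7 and 6. When dim signals were raised to 37.4, the median log2 fold change was 0.00 for the 23 and 0.40 for the 12. Of the 6 called probe sets with 1 gene, 5 kept a difference after this step and cox2 did not.

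**Figure D2:**
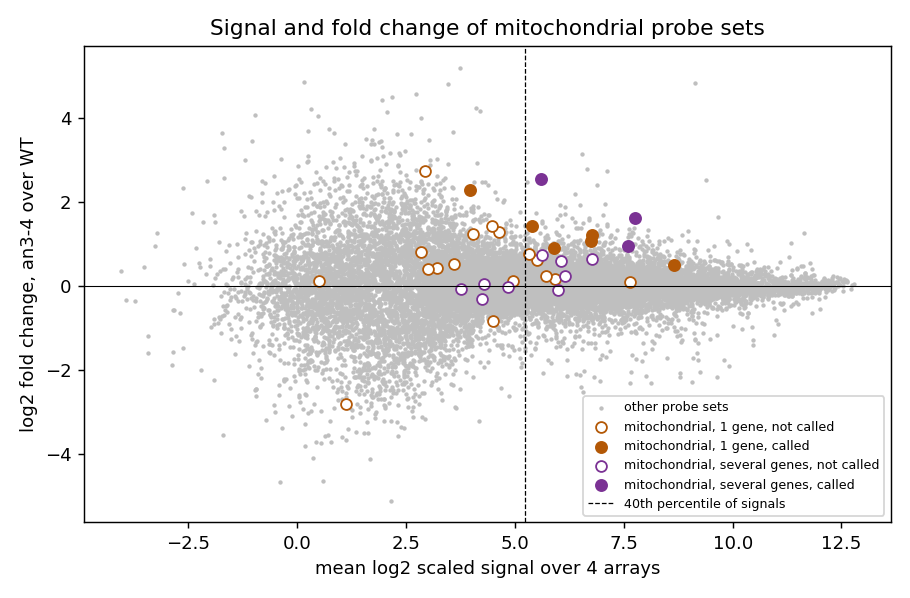
Log2 fold change of an3-4 over WT (vertical axis) against mean log2 scaled signal over the 4 arrays (horizontal axis) for every probe set, with mitochondrial ones in colour and called ones filled. The dashed line marks a signal of 37.4; scatter of all probe sets widens to its left, where cox2 is the only called mitochondrial probe set.

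Complex IV had both of its singly listed genes among the calls. The gene cox1 encodes the subunit that holds the oxygen-reducing centre. Its probe set 257333_at had signals of 169 and 166 in an3-4, against 66.1 and 78.3 in WT. The genotypes did not overlap, and no signal was dim. The log2 fold change was 1.22 ± 0.14 (limma adjusted p = 0.00123), and an3-4 was 2.56-fold above WT on the arrays numbered 1 and 2.12-fold on those numbered 2.

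The gene cox2 encodes the subunit that takes electrons from cytochrome c. Its probe set 244950_at had signals of 36.5 and 32.6 in an3-4 and of 6.29 and 8.03 in WT. All 4 were dim, and both an3-4 arrays were above both WT arrays. The log2 fold change was 2.28 ± 0.46 (limma adjusted p = 0.0233), a value that raising dim signals to 37.4 reduces to 0.00. The call was lost when either an3-4 array was left out (2.20 without replicate 1 and 2.36 without replicate 2). The third probe set of this complex, 263509_s_at, lists a complex IV gene and a chromosome 2 locus. It had 61.0 and 66.5 in an3-4 and 48.3 and 30.1 in WT, a log2 fold change (0.74 ± 0.27, limma adjusted p = 0.186) that was not called.

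Complex I was the best covered, with 15 singly listed probe sets for 8 genes. Of these, nad9 and 1 probe set of nad1 rose and none fell, with a median log2 fold change of 0.51. The range was -2.80 to 2.74, and both ends were probe sets dim on all 4 arrays. With dim signals raised to 37.4 it was 0.00 to 0.90. In 8 of the 15 all signals were dim. The gene nad9 encodes a subunit of the arm of complex I that reaches into the matrix. Its probe set 244943_at had 77.7 and 84.2 in an3-4, against 37.9 and 49.7 in WT, with no overlap and no dim signal. The log2 fold change was 0.90 ± 0.21 (limma adjusted p = 0.0420). It had the largest adjusted p of the 9 calls, and the call was lost without either an3-4 array (0.96 without replicate 1, 0.84 without replicate 2) and without WT replicate 1 (0.70). It was also lost with the values as deposited (limma adjusted p = 0.161, or 0.0505 when the dimmest 40% of probe sets were also filtered out), quantile normalization (0.0679), median centring (0.0545) and an offset of 32 added before the log (0.0982).

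The gene nad4 encodes a membrane subunit that takes part in proton pumping. Its probe set 244929_at had 212 and 203 in an3-4 and 220 and 173 in WT, none of them dim. The genotypes overlapped, and the log2 fold change was 0.09 ± 0.12 (limma adjusted p = 0.800). No test between genes was made.

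The other complex I genes were read by mostly dim probe sets. The 2 probe sets of nad5, a second membrane subunit of the pump, both had higher signals on both an3-4 arrays. 257337_at had 15.3 and 25.8 in an3-4 and 4.46 and 1.99 in WT, a log2 fold change (2.74 ± 0.71, limma adjusted p = 0.0648). 257338_s_at had 44.8 and 59.6 in an3-4 and 29.0 and 32.5 in WT, a log2 fold change of 0.75 ± 0.27, and neither was called. The small membrane subunit gene nad4L (244902_at) had 41.4 and 36.5 in an3-4 and 13.6 and 18.5 in WT, a log2 fold change (1.29 ± 0.36, limma adjusted p = 0.0831). The gene nad2 had the opposite sign, with 0.85 and 0.80 in an3-4 and 3.26 and 10.1 in WT. Its mean log2 signal lay at percentile 7.6 of all probe sets, and its log2 fold change of -2.80 ± 0.97 was not called (limma adjusted p = 0.164). Log2 fold changes of nad6 (0.12) and nad7 (0.42) lay within 1 SE of 0, and the genotypes overlapped in both.

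**Figure D3:**
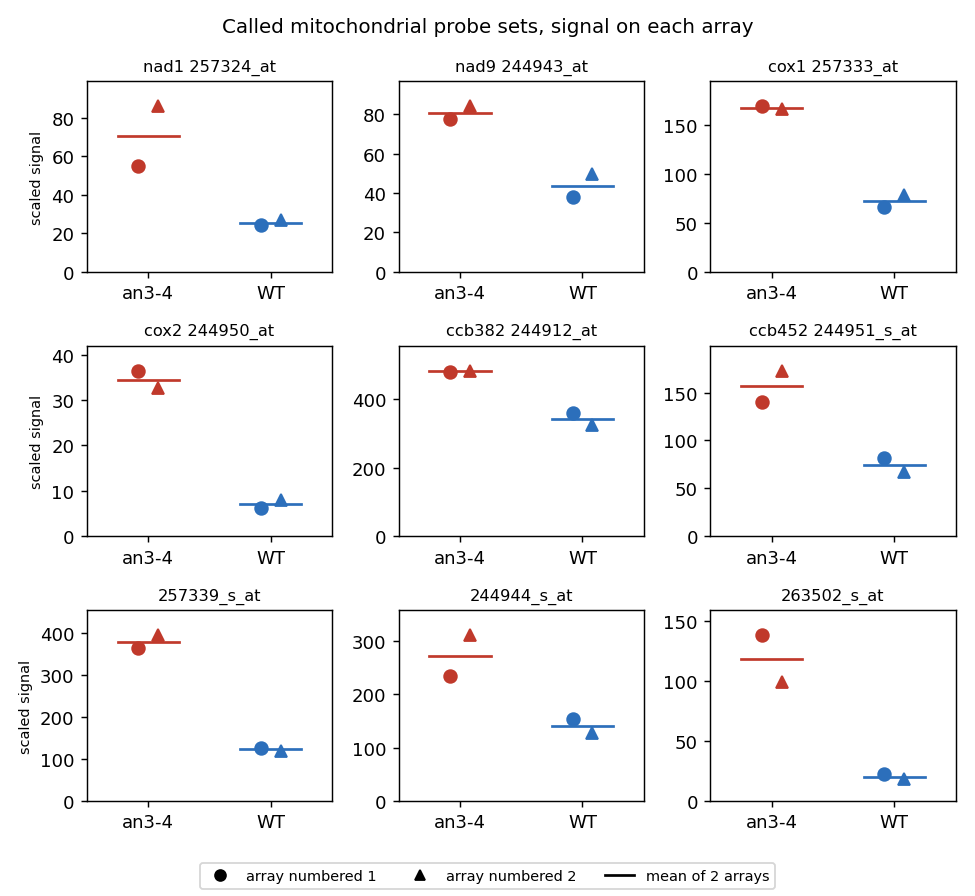
Scaled signal (vertical axis, linear from 0, a scale of its own in each panel) on each array for the 9 called mitochondrial probe sets, with an3-4 left and WT right. Circles and triangles are the arrays numbered 1 and 2 and lines are means of 2 arrays; the genotypes do not overlap in any panel, and cox2 stays under 37.4 on every array.

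The 7 probe sets that list nad1 alone did not behave alike. This gene encodes a membrane subunit next to the ubiquinone site, and its message is put together from separately transcribed pieces. The called one, 257324_at, had 54.9 and 86.0 in an3-4, against 24.3 and 26.8 in WT. Both WT signals were dim, so its log2 fold change of 1.43 ± 0.28 (limma adjusted p = 0.0217) becomes 0.88 when both are raised to 37.4. The call was lost without an3-4 replicate 2 (1.10), without WT replicate 1 (1.36) and with the offset of 32 (0.82, limma adjusted p = 0.0871).

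The other 6 were not called. 257325_at had 35.8 and 37.6 in an3-4 and 10.7 and 17.2 in WT, and 257323_at had 21.3 and 29.7 in an3-4 and 14.7 and 7.79 in WT. Their log2 fold changes were 1.44 ± 0.40 and 1.23 ± 0.50, with both an3-4 arrays above both WT arrays. 257322_at lay the other way, with 19.8 and 14.1 in an3-4 and 30.5 and 29.5 in WT, a log2 fold change (-0.84 ± 0.38, limma adjusted p = 0.307). For 257321_at, the only one with no dim signal, values of 49.5 and 65.9 in an3-4 and 56.2 and 41.7 in WT overlapped, and the log2 fold change was 0.24 ± 0.25. 257327_at had 16.1 and 5.26 in an3-4 and 13.6 and 3.56 in WT, and 257329_at had 18.6 and 11.3 in an3-4 and 6.01 and 17.1 in WT. In both, the 2 arrays of a genotype differed more from each other than the genotypes did. The annotation does not say which exon or intron, or which strand, each probe set reads. The 2 probe sets that list nad1 beside a chromosome 2 locus, 266013_s_at and 265229_s_at, had log2 fold changes of 0.05 and -0.32, all signals dim.

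**Figure D4:**
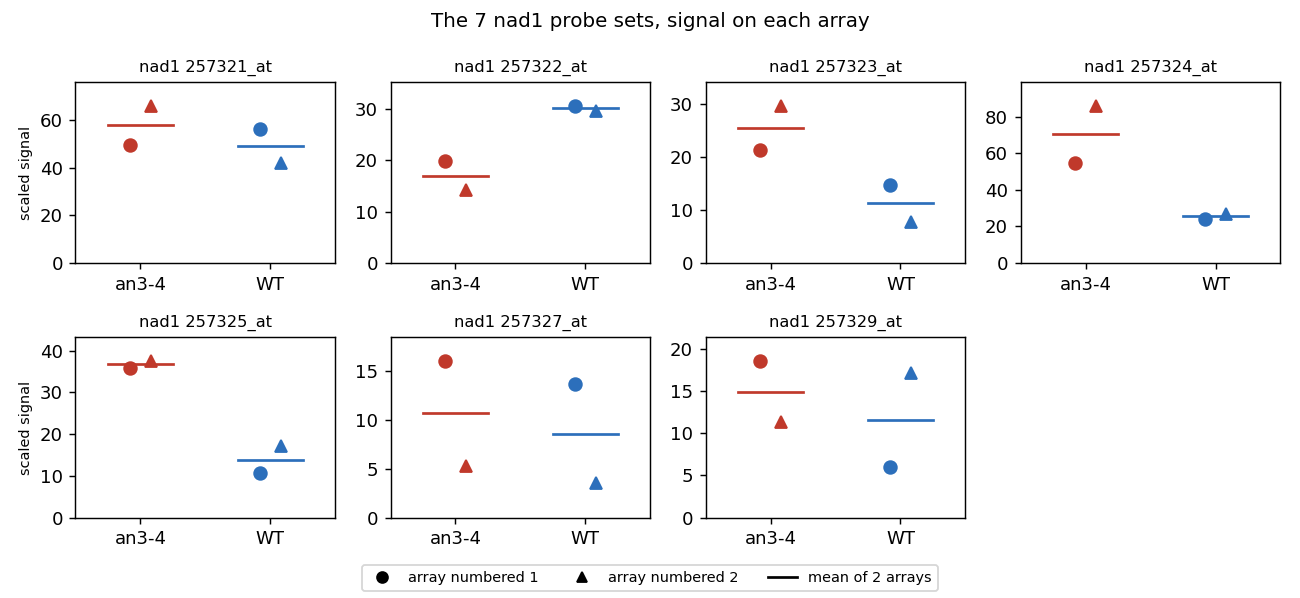
Scaled signal (vertical axis, linear from 0, a scale of its own in each panel) on each array for the 7 probe sets that list nad1 alone, with an3-4 left and WT right; circles and triangles are the arrays numbered 1 and 2 and lines are means of 2 arrays. Of the 7, 3 have both an3-4 arrays above both WT arrays, 1 has both below, and 3 overlap.

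All 4 genes of cytochrome c maturation had positive log2 fold changes, and 2 of them rose, with a median of 0.71. The gene ccb452, ccmFC in the RefSeq table, encodes part of the CcmF protein, which acts in the transfer of heme to the apocytochrome. Its probe set 244951_s_at had 140 and 173 in an3-4, against 81.8 and 67.4 in WT, without overlap. The log2 fold change was 1.07 ± 0.16 (limma adjusted p = 0.00525). The gene ccb382, ccmFN1 in that table, encodes another part of CcmF, and its probe set 244912_at had 478 and 482 in an3-4 and 358 and 323 in WT. Its log2 fold change was smaller, 0.50 ± 0.08, with a similar limma adjusted p of 0.00967. The call on ccb382 was lost without WT replicate 2 (0.42) and with the values as deposited (limma adjusted p = 0.298, or 0.436 with the 40% filter as well).

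The gene ccb206, listed as ccmB, encodes a membrane part of an ABC transporter of this pathway. Its probe set 244945_at had 55.7 and 56.7 in an3-4 and 43.8 and 30.6 in WT, and its log2 fold change of 0.62 ± 0.26 was not called (limma adjusted p = 0.255). The signals of ccb203, ccmFN2 in that table, were dim at 9.25 and 9.91 in an3-4 and 9.26 and 3.22 in WT, and the genotypes overlapped. Respiratory complexes, with 17 singly listed probe sets, had 4 calls and a median log2 fold change of 0.75, close to that of the 4 maturation genes. All signals were dim for 9 of the 17, against 1 of the 4 maturation genes. With dim signals raised to the dim threshold, the medians were no longer close. They were then 0.00 for respiratory complexes and 0.49 for the maturation genes. The difference between the roles was not tested, and the members of each role spread over a wider range than the medians differ.

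The remaining singly listed genes were orfX and matR. The gene orfX, or mttB, encodes a membrane protein related to TatC of the twin-arginine export system. Its probe set 244928_s_at had 59.3 and 69.3 in an3-4 and 54.3 and 59.2 in WT. Both an3-4 arrays lay above both WT arrays, the lower an3-4 and the higher WT value being nearly equal, and the log2 fold change of 0.18 ± 0.19 was not called (limma adjusted p = 0.734). The gene matR encodes a maturase-related protein within an intron of nad1, and its 4 signals lay between 1.31 and 1.63.

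The probe sets that list more than 1 gene held the largest called rise. 263502_s_at, listed for a mitochondrial ribosomal protein gene and a chromosome 2 locus, had 138 and 99.3 in an3-4, against 22.2 and 18.1 in WT. The log2 fold change was 2.55 ± 0.25 (limma adjusted p = 6.70e-04), or 1.65 with the WT signals, both dim, raised to 37.4. 257339_s_at, listed for a complex V gene and a chromosome 2 locus, had 364 and 395 in an3-4 and 125 and 120 in WT. None of its signals was dim, and the log2 fold change was 1.63 ± 0.09 (limma adjusted p = 4.38e-05).

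244944_s_at, which lists 2 mitochondrial ribosomal protein genes and no nuclear one, had 234 and 311 in an3-4 and 153 and 128 in WT. Its log2 fold change was 0.95 ± 0.15 (limma adjusted p = 0.00671), and the call was lost with the offset of 32 (0.81, limma adjusted p = 0.0552). The second complex V probe set, 265228_s_at, had 110 and 167 in an3-4 and 83.5 and 91.3 in WT, and its log2 fold change of 0.64 ± 0.19 was not called (limma adjusted p = 0.104). The complex III probe set 266045_s_at had 71.9 and 51.5 in an3-4 and 69.9 and 61.3 in WT. The genotypes overlapped there, and the log2 fold change was -0.10 ± 0.21. The other 4 ribosomal protein probe sets had log2 fold changes of 0.60, 0.22, -0.03 and -0.08 and were not called.

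Order along the genome was read from the RefSeq table, which has 33 protein-coding entries on the mitochondrial chromosome, with atp6 entered more than once. Of these, 27 have a probe set here. For 16 of the 27 a probe set lists the gene alone, and the rest are read only by probe sets that list several genes. The run cox2, ccmB, rps3, rpl16 and nad9 was covered in full by 4 probe sets, of which 3 were called, with log2 fold changes of 2.28, 0.62, 0.95 and 0.90. In another run, ccmFC at 1.07 was followed by nad4 at 0.09 and mttB at 0.18, so a called gene stood next to genes with values close to 0. Both runs were singled out after their values were seen.

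Nuclear genes for the same machinery were called about as often as probe sets in general. Of 125 listed nuclear genes of mitochondrial function, the annotation named 51, and of these 2 fell and none rose, with a median log2 fold change of -0.05. That is 3.92% called, against 5.16% of all probe sets, of which 2.51% were lower. At an unadjusted p under 0.05 limma gave 4 of the 51, 1 higher and 3 lower, a smaller share than the 17.2% of all probe sets. Both an3-4 arrays lay above both WT arrays for 5 of the 51 (9.8%), where 25.0% of all probe sets did so. They lay below both for 18 of the 51, where 20.8% did. The nuclear genes thus leaned lower in an3-4, mostly without being called. For complex I, 1 of 9 fell. AT3G12260, a small accessory subunit, had 1039 and 971 in an3-4 and 1642 and 1701 in WT, a log2 fold change (-0.73 ± 0.08, limma adjusted p = 8.55e-04). For complex III, 1 of 9 fell. AT3G10860, a subunit of the QCR8 type, had 866 and 931 in an3-4 and 1262 and 1213 in WT, a log2 fold change (-0.46 ± 0.08, limma adjusted p = 0.00935).

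None of the 11 nuclear genes for complex IV and cytochrome c was called, with a median log2 fold change of -0.09. Smallest in p were CYTC-1 (AT1G22840), a cytochrome c gene, at -0.21 ± 0.08, and the complex IV gene AT5G61310 at -0.19 ± 0.09. Of this list only CYTC-1 had an unadjusted p under 0.05. None of the 4 genes of complex II (median 0.05) and neither of the 2 of complex V (median -0.05) was called, and none had an unadjusted p under 0.05. CCMH, the nuclear maturation gene measured, had 0.02 ± 0.29 with all signals dim. Among 9 genes of mitochondrial DNA and RNA machinery none was called, and none had an unadjusted p under 0.05. The polynucleotide phosphorylase gene AT5G14580, whose product trims and degrades mitochondrial RNA, had -0.34 ± 0.19, and AT3G48810 had -0.67 ± 0.39 with all signals dim. Among 4 genes of alternative respiration and mitochondrial stress none was called or had an unadjusted p under 0.05, and NDB2 at 0.52 ± 0.30 had the smallest p. Neither of the 2 nuclear genes for mitochondrial ribosomal proteins was called. HLL had 197 and 219 in an3-4 and 126 and 163 in WT, a log2 fold change (0.53 ± 0.13, limma adjusted p = 0.0577). The other, AT3G49080, had -0.07 ± 0.12, and the genotypes overlapped. The list of carriers, import proteins and citrate synthase had no named member.

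The genes of the other organelle genome were set beside these. Of 77 probe sets that list plastid genes alone, 6 rose and 1 fell, with a median log2 fold change of 0.14, where 2.66% of all probe sets were called higher and 2.51% lower. The 6 became 1 with the values as deposited (at either filter), median centring, the offset of 32 or without WT replicate 2. They became 3 without an3-4 replicate 1, 2 without an3-4 replicate 2, 0 without the intensity trend, 12 with the replicate block and 13 with the 40% filter. Both an3-4 arrays lay above both WT arrays for 38 of the 77 (49.4%) and below both for 4. Over all probe sets these shares were 25.0% and 20.8%. At an unadjusted p under 0.05, limma gave 21 of the 77 higher and 2 lower. Of all probe sets, 9.49% were higher and 7.72% lower at that threshold. A lean towards higher signals in an3-4 was thus seen in both organelle sets, with a smaller median in the plastid one. None of the 77 had a dim signal, and no test of the difference between the organelles was made.

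**Figure D5:**
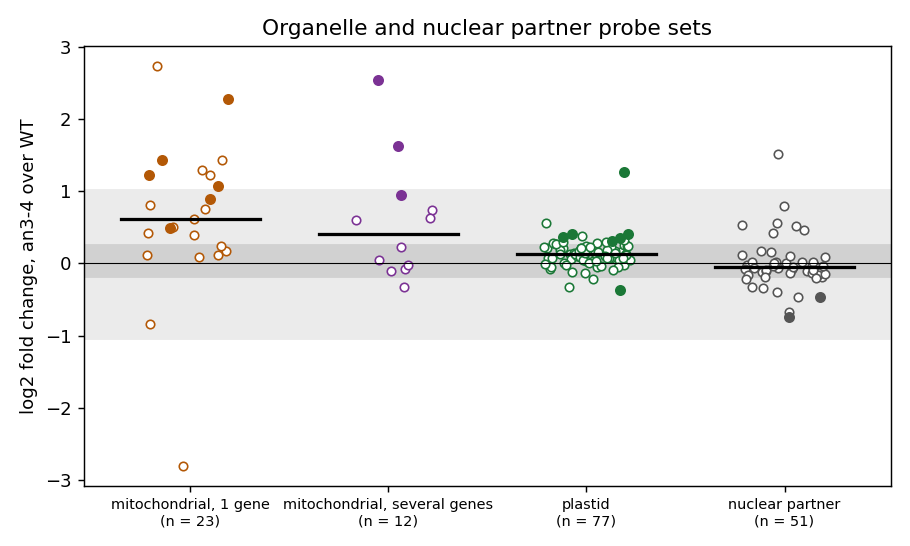
Log2 fold change of an3-4 over WT (vertical axis) for each probe set of 4 groups, filled where called at an adjusted p under 0.05, with the median as a black line; points are spread sideways for legibility. Pale and darker bands hold the middle 90% and 50% of all probe sets. Medians, with dim signals left as measured, are 0.62, 0.41, 0.14 and -0.05 from left to right.

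Some signals that bear on RNA quality differed a little between the genotypes. Controls that compare the 3' with the 5' part of a transcript gave 6 ratios. Actin, GAPDH and ubiquitin were each read more than once, so the ratios are not independent. For 3 of them both an3-4 arrays lay above both WT arrays, with differences in log2 ratio of 0.12 to 0.23. The other 3 overlapped, with differences of 0.19, 0.16 and -0.02. Ribosomal RNA, which like most organelle RNA has no stable poly(A) tail, was read by 2 controls. For 5S rRNA the signals were 114 and 191 in an3-4 and 106 and 116 in WT, and for 25S rRNA 28.5 and 43.2 in an3-4 and 41.6 and 41.1 in WT. For 5S rRNA 1 an3-4 array lay within the WT range and the other above it, and for 25S rRNA 1 an3-4 array lay below WT and the other above. The part of these differences in the mitochondrial result was not tested. In whole primordia, more mitochondrial RNA per cell, more cells rich in it and more of it tailed or otherwise primed cannot be told apart.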

How the data were processed

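Total RNA of leaf primordia was hybridised as biotinylated cRNA, 1 array per sample, per the labels' protocols. The authors deposited linear intensity values, 1 per probe set, from MAS5 per the submitters' processing notes. The software version and scaling target are not given in the sources used here. In all, the table holds 22810 probe sets, of which 64 controls were left out.

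Each array was multiplied to 1 common trimmed mean of 156 (2% trimmed from each end). Log2 signals without an offset were fitted with limma 3.58.1 (R 4.3.3; lmFit, then eBayes with an intensity trend), genotype as the only term, 2 residual degrees of freedom and 6.96 prior degrees of freedom. The number of arrays limits the precision. With 2 arrays a genotype no exact permutation test can pass the threshold, so calls rest on the spread pooled over probe sets. Scripts were tested on simulated data.

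Genes came from the platform annotation, in which 13513 probe sets list 1 gene, 503 several and 8730 none. The gene identifiers of the mitochondrial genes were not in the RefSeq table of TAIR10.1, so all 16 were matched to it by symbol or synonym, and it gave names and gene order only. A nuclear gene with several probe sets took the one with the highest mean log2 signal. Members and lists were chosen with earlier results of these data known. Named with values on every array were all called members, the member with the highest mean log2 signal in each role, and all probe sets of a gene with a call, and other members were added after their values were seen. From each nuclear list the called genes were named, or else up to 2 with the smallest p. For complexes II and V only the counts and medians were given.

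Alternatives were the values as deposited, quantile normalization, median centring, a 40% filter on dim probe sets, eBayes either robust or without its trend, an offset of 32, a block for replicate number, and leaving out each array. The values as deposited with the 40% filter were added after the data were examined.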

Additional observations from a re-analysis of the deposited data

How the results depend on the processing

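No called mitochondrial probe set changed direction in any setting, and 5 of the 9 kept their call whichever array was left out (cox1, ccb452, 244944_s_at, 257339_s_at and 263502_s_at). The counts of 604 higher and 570 lower over all probe sets depended on the setting. They were 264 and 276 with the values as deposited, 295 and 300 with an offset of 32, 967 and 859 with the replicate block, and 197 and 196 with the deposited values and the 40% filter together. Without the intensity trend limma called 0 and 0, also 0 of each mitochondrial set and 0 nuclear partner genes, with 2810 probe sets, 12 of the 23 and 4 of the 12 at an unadjusted p under 0.05, and the cause was not tested. The 6 calls among the 23 probe sets with 1 mitochondrial gene became 3 with the deposited values and the 40% filter, which tests 10 of them. The 3 calls among the 12 with several genes became 5 with the 40% filter and 4 with the replicate block. The median of 0.62 for the 23 became 0.53 with quantile normalization and 0.36 with the offset of 32, which shrinks dim values. The median of 0.41 for the 12 became 0.69 with the 40% filter, with or without the deposited scale, since dim members drop out. Of the nuclear partner genes, 1 rose with the 40% filter and with the replicate block, and 1 fell with the deposited values at either filter.

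Leaving out 1 array, where the single array left is taken to have the spread of the other genotype, gave 286 to 514 higher and 333 to 407 lower over all probe sets. It gave 3 (without an3-4 replicate 2) to 5 higher among the 23, with medians of 0.63 to 0.84, and 3 to 4 higher among the 12, with medians of 0.24 to 0.52. Nuclear partner genes had 0 to 1 higher and 1 to 2 lower. Of the 35 probe sets, 11 changed sign without some array, none of them called. Their log2 fold changes ran from -0.34 to 1.19 for nad7, -0.03 to 0.27 for matR, -0.08 to 0.26 for nad4, -0.04 to 0.29 for nad6, -0.57 to 1.37 for 257327_at, -0.25 to 1.27 for 257329_at, -0.04 to 0.49 for 265232_s_at, -0.53 to 0.37 for 265238_s_at, -0.19 to 0.29 for 266013_s_at, -0.16 to 0.11 for 266044_s_at and -0.35 to 0.14 for 266045_s_at. With median centring 266013_s_at was at -0.004.

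Deviations of same-numbered arrays from their genotype means correlated at -0.01 over all probe sets, so the numbers were not taken as pairs, and beside the counts above the block added 265228_s_at to the calls among the 35.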
